A study of Hordeum vulgare with 6 samples.

Results

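A pair of oxalate oxidase genes on chromosome 4H, HORVU4Hr1G005380 and HORVU4Hr1G005440, and a gene like pathogenesis-related protein 1 (PR1) on chromosome 5H, HORVU5Hr1G106010, were followed in barley shoots. These 3 genes of the 39841 listed were taken by identifier, together with the genes that start between 12000 and 12500 kb on 4H, the surroundings of both oxalate oxidase genes. The study sequenced poly(A) RNA from shoots of the barley line Rolap, with 3 low-Pi and 3 control libraries. Low-Pi plants (Pi is inorganic phosphate) stayed in a soil that held 8 mg of phosphorus per kg, and control plants received another 60 mg per kg as KH2PO4 in that soil. All plants grew under 16 h of light at 22 °C and were harvested on day 23, and 1 replicate was a pot of 3 plants.

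Oxalate oxidases belong to the germins, secreted manganese enzymes of the cell wall that split oxalate into carbon dioxide and hydrogen peroxide. In cereals they are known from germinating embryos and from leaves attacked by powdery mildew fungi, where the peroxide serves wall cross-linking and signalling. They also remove oxalic acid, which some fungi secrete during infection. PR1 proteins are small secreted proteins of the CAP superfamily that bind sterols, and their transcripts are used across plants as markers of salicylic acid dependent defence.

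The measured value is the level of a gene, here the higher of its low-Pi and control means as the authors averaged them. The column does not say which of the groups is the higher one, and values of the single libraries were not used here, so no spread or depth can be given. The level is normalised to gene length, so genes can be set beside each other. Its unit is not given in the file. The methods name TPM as the normalisation used and define RPKM as a term in its formula, but the column does not state its unit. The authors' fold changes and p-values were not used, so no low-Pi effect is reported below, and every statement is a description without a test. A level above 0 was listed for 27022 genes, 67.8% of all.

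The PR1-like gene had a level far above those of both oxalate oxidase genes. HORVU5Hr1G106010 (5H, 623107407 to 623108808, plus strand, build IBSC_v2) had a level of 58.1, the authors' higher group mean. That level exceeded those of 96.3% of the genes above 0 and placed the gene 994th in the whole table. HORVU4Hr1G005440 (4H, 12269769 to 12271793, plus strand), named oxalate oxidase by the study, had a level of 2.34, above 61.2% of these genes. HORVU4Hr1G005380 (4H, 12256558 to 12258042, minus strand), named oxalate oxidase 2, had a level of 0.978, above 46.5% of them. The median level of the genes above 0 was 1.22, with quartiles of 0.165 and 5.39. One oxalate oxidase gene thus lay above and the other below the midpoint of all genes with signal. That midpoint is likewise taken over higher group means, so it gives no rank within either group.

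Expressed as ratios of these levels, the PR1-like gene stood 24.8-fold above HORVU4Hr1G005440 and 59.4-fold above HORVU4Hr1G005380. The oxalate oxidase genes differed 2.39-fold from each other. Whether any of these ratios is larger than the spread between libraries cannot be told from 1 pooled value per gene. Each ratio is between higher group means as the authors gave them. Among the genes on the same chromosome with a level above 0, the percentiles were 96.1 on 5H (4214 genes) for the PR1-like gene. On 4H (3048 genes) they were 56.8 for HORVU4Hr1G005440 and 42.0 for HORVU4Hr1G005380.

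**Figure D1:**
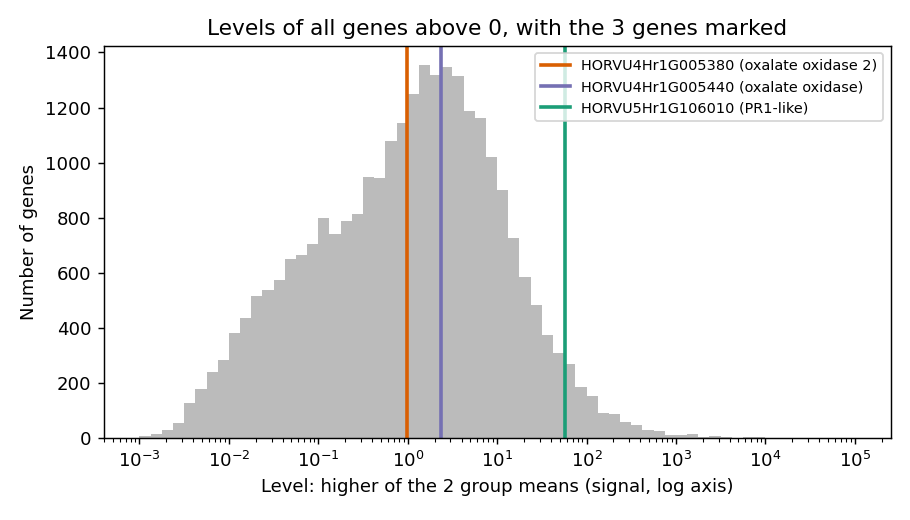
Number of genes (vertical axis) by level, the higher of the 2 group means (horizontal log axis, signal), for the 27022 genes above 0, with a vertical line at each of the 3 genes. The oxalate oxidase genes at 0.978 and 2.34 lie on either side of the median of 1.22, and the PR1-like gene at 58.1 lies in the upper tail.

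A pair of chlorophyll a-b binding protein genes, which build the light-harvesting antennae of green tissue, served as markers of the shoot. HORVU1Hr1G088920 had a level of 411 and HORVU6Hr1G016890 one of 350, above 99.5% and 99.4% of the genes with signal. A level stands for the group with the higher mean, and the study selected both markers on these libraries, so they are no check of the tissue in both groups.

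The start of HORVU4Hr1G005440 and the 5′ end of HORVU4Hr1G005380 lie 11727 bp apart on 4H, and the genes point away from each other on opposite strands. Between them lies 1 listed gene, HORVU4Hr1G005410, a model of 246 bp on the plus strand, which is listed at 0. The window from 12000 to 12500 kb held 12 listed genes, the oxalate oxidase pair and 10 others, none of which is annotated in the sources used here. All of them start within a stretch from 12238256 to 12470902. The pair ranked 3 and 5 in the window by level.

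Of the 10 other genes of the window, 6 had a level above 0 and 4 were listed at 0. The highest were the next genes on the side of HORVU4Hr1G005440, namely HORVU4Hr1G005460 with a level of 3.41 and HORVU4Hr1G005450 with 3.34. They overlap by 1929 bp on opposite strands. Strand use in counting is not given in the sources used here, so their near-equal levels are uncertain as separate measurements. The first gene on the other side, HORVU4Hr1G005370, starts at 12238256 and was listed at 0, as were HORVU4Hr1G005480 and HORVU4Hr1G005490. A gap of 149301 bp separates HORVU4Hr1G005460 from the next listed gene. Beyond it, HORVU4Hr1G005530 had a level of 1.76, HORVU4Hr1G005500 of 0.957, HORVU4Hr1G005540 of 0.144 and HORVU4Hr1G005510 of 0.0674. HORVU4Hr1G005500 overlaps HORVU4Hr1G005490 by 452 bp and HORVU4Hr1G005510 by 4177 bp, each on the opposite strand.

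In the window as a whole, 8 of 12 genes were above 0 (66.7%), against 67.8% of all listed genes. Those 8 include the oxalate oxidase pair, which was chosen beforehand. Of the 10 other genes, 6 were above 0. A level of at least 1 was reached by 4 of 12 (33.3%), against 36.0% of all. Neither oxalate oxidase gene overlaps another listed gene. Germins form families of similar copies, and the handling of reads that map to several places is not given in the sources used here, so the division of signal between the pair is uncertain.

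**Figure D2:**
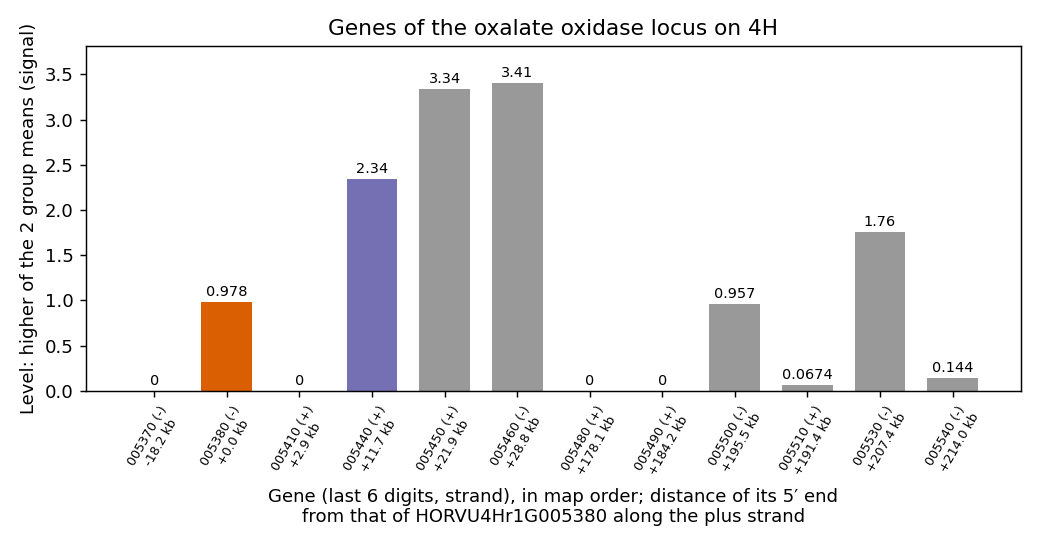
Levels (vertical axis, higher of the 2 group means, signal) of the 12 listed genes that start between 12000 and 12500 kb on 4H, in map order, with the distance of each 5′ end from that of HORVU4Hr1G005380 in kb under the bars. The oxalate oxidase genes (coloured, 0.978 and 2.34) stand below the neighbouring overlapping pair at 3.34 and 3.41, and 4 genes are at 0.

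The PR1-like gene stood out from its own neighbourhood by level. Within 250 kb of its start on either side, 7 other genes were listed, 5 above 0 and 2 at 0, HORVU5Hr1G106030 and HORVU5Hr1G106070. The highest of them, HORVU5Hr1G105950, had a level of 6.97, so the level of HORVU5Hr1G106010 was 8.33-fold higher. Of its nearest neighbours, HORVU5Hr1G106000, which ends 4501 bp before it on the opposite strand, had a level of 0.0161. HORVU5Hr1G106020, which starts 23064 bp after it on the same strand, had a level of 0.418. HORVU5Hr1G105970 and HORVU5Hr1G105980, further upstream, had levels of 1.02 and 0.571. No listed gene of this neighbourhood overlaps another.

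**Figure D3:**
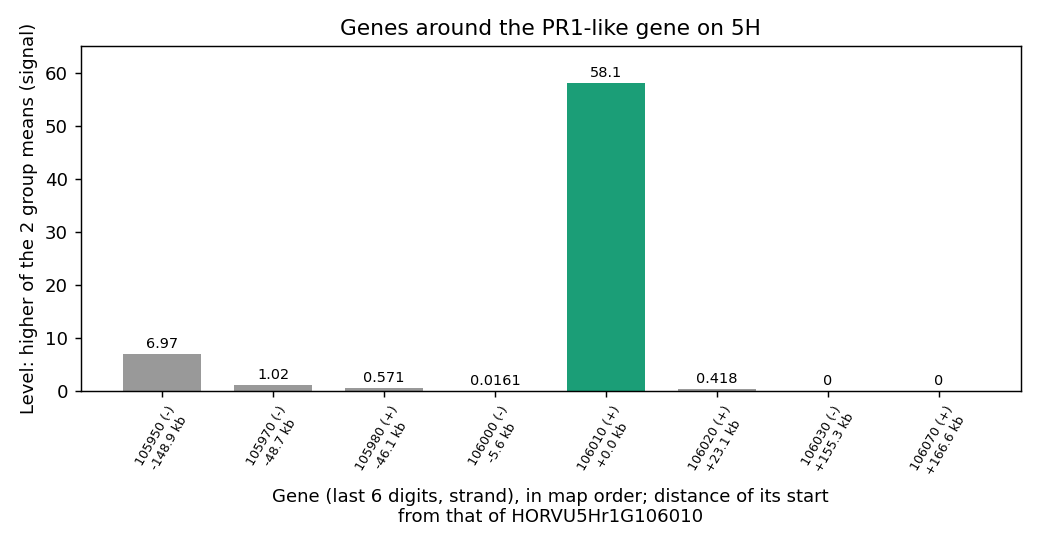
Levels (vertical axis, higher of the 2 group means, signal) of the 8 listed genes that start within 250 kb of HORVU5Hr1G106010 on 5H, in map order, with the distance of each start in kb under the bars. The PR1-like gene at 58.1 is the tallest bar, and the next is HORVU5Hr1G105950 at 6.97.

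The 3 genes were set beside 7 others of pathogen defence or cell wall oxidation that the study names. Among these 10 genes the PR1-like gene had the highest level, and the oxalate oxidase genes had the lowest. Second was chalcone synthase 2 (HORVU1Hr1G089540), the entry enzyme of flavonoid synthesis, with a level of 18.0. An O-methyltransferase gene (HORVU4Hr1G001250), which different listings of the study name as a caffeic acid or a tricetin form, had 13.9. The laccase genes HORVU3Hr1G097860 and HORVU1Hr1G019750, whose products oxidise lignin precursors in the wall, had levels of 9.13 and 5.69. The homolog of ALD1 (HORVU4Hr1G071300), an aminotransferase that in Arabidopsis leads to the defence signal pipecolic acid, had a level of 5.51. A gene like peroxidase 57 (HORVU5Hr1G097130), of the enzyme class that consumes hydrogen peroxide in the wall, had 4.66, and the cysteine-rich receptor-like kinase 10 gene (HORVU3Hr1G109350) had 3.06. The median of the 7 was 5.69, against 2.34 and 0.978 for the oxalate oxidases. The study picked these genes from these same libraries, so the list is no sample of defence genes in general. The study also names other stress and defence genes, such as beta-sesquiphellandrene synthase, that were left out of the list. The highest and lowest places hold only within it. Each level is the higher group mean of its gene, so the order can set a low-Pi mean beside a control mean.

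**Figure D4:**
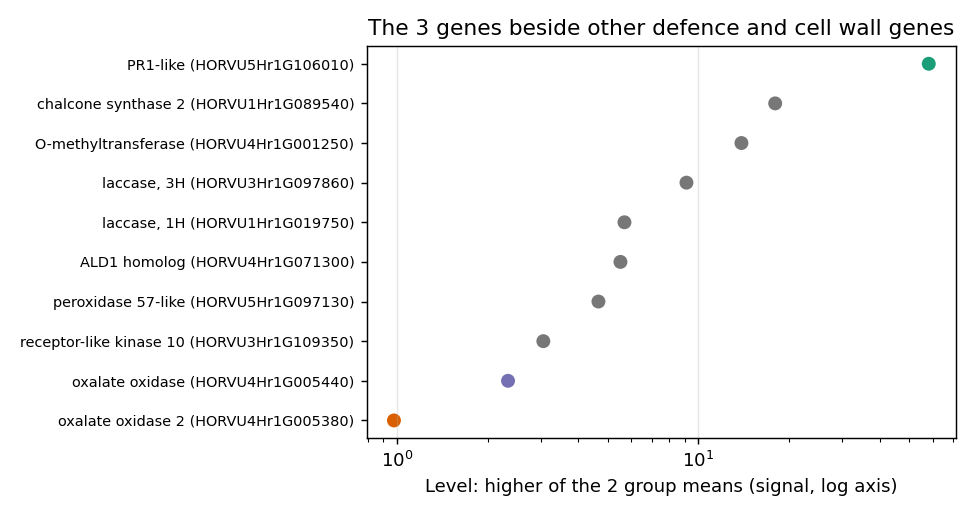
Level (horizontal log axis, higher of the 2 group means, signal) of the 3 genes, in colour, and of 7 other defence and cell wall genes, in grey, 1 point per gene in order of level. The PR1-like gene at 58.1 is at the top, and the oxalate oxidase genes at 0.978 and 2.34 are at the bottom.

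The study also listed upstream sequences, of which the first 399 of 2000 bases, the end far from the gene, were read here. They were searched for the P1BS motif (GNATATNC, the same on both strands), which the phosphate starvation regulator PHR1 binds, for the PHO element (ATGCCAT, both strands) and for the W-box core (TTGAC, both strands) of defence-related WRKY factors. The first 120 bases are shown for each gene, since they hold every P1BS match found in the 3 windows, which is in capitals. On IBSC_v2 they would cover chr5H:623105407-623105526 (plus strand), chr4H:12267769-12267888 (plus strand) and chr4H:12259923-12260042 (minus strand), in the order shown, if the sequences end at the base before each annotated gene.
HORVU5Hr1G106010: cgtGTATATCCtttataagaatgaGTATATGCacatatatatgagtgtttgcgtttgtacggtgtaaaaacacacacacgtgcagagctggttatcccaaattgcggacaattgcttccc
HORVU4Hr1G005440: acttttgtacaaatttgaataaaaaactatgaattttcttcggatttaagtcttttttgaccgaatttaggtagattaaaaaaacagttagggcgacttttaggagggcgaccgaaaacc
HORVU4Hr1G005380: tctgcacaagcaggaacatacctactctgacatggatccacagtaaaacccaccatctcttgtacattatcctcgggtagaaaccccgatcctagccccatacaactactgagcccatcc

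The window of the PR1-like gene held 2 matches to P1BS, at positions 4 and 25 counted from its far end. Neither oxalate oxidase window held these letters. Over the full 2000 bases, however, the study itself listed P1BS for all 3 genes. Its sites for both oxalate oxidase genes, and another for the PR1-like gene, lie in the part not read here. The 1601 bases nearer to each gene were not analysed here, so the windows do not compare the whole promoters of the 3 genes. The study listed upstream sequences only for genes it had selected as differing between low-Pi and control shoots, the 3 genes included, so shares over them are no general background. Over the 85 of these windows without unknown bases, all of the same length, 8 (9.41%) held P1BS, 9 (10.6%) the PHO element and 49 (57.6%) the W-box core. No window of the 3 genes held the PHO element. The W-box core occurred at positions 57 and 363 of the HORVU4Hr1G005440 window and in neither of the other windows. The GC content was 35.1% in the PR1-like window, 48.9% for HORVU4Hr1G005440 and 44.4% for HORVU4Hr1G005380, against a median of 43.9% over the 85 windows. A match is a run of letters and not a shown binding site.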

How the data were processed

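The authors trimmed the reads, mapped them to barley IBSC_v2 with the Ensembl Plants annotation, and ran a two-group comparison in CLC Genomics Workbench, whose version, strand setting and treatment of multiply mapping reads were not given in the sources used here. For each gene the single table used holds its position and the higher of the 2 group means, which is a length-normalised signal as deposited by the authors, its unit unnamed. It summed to 589470. The remaining columns hold the authors' own comparison (log2 fold change, fold change, p-value and its adjustments) and were not used, so no call, test or standard deviation is given and leaving out a replicate was not possible.

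With Python 3.11.15 and pandas 2.3.3, genes were ranked by level among the 27022 above 0, windows were taken by annotated start, and motifs were searched in the study's upstream sequences. The ranking and the motif search were tested on simulated data. Gene names are those of the study, and 0 of the 3 identifiers matched the RefSeq table for MorexV3. The genes named are the 3 followed, the genes of both windows, a pair of green tissue markers and 7 context genes. Members and lists were chosen with earlier results of these data known, and the W-box core was added after the other motifs. Alternatives were other sets of genes to rank among, other windows and level minimums, and windows with unknown bases.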

Additional observations from a re-analysis of the deposited data

How the results depend on the processing

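Ranked among all listed genes, those at 0 included, the percentiles were 97.5 for HORVU5Hr1G106010, 73.7 for HORVU4Hr1G005440 and 63.7 for HORVU4Hr1G005380, because the genes at 0 then count as lower. Among genes with a level of at least 1 they were 93.1 and 26.9 for the first pair, and HORVU4Hr1G005380 fell out of the set. Limiting the ranking to genes on 1H to 7H moved each by less than 1 percentage point. The window on 4H held 20 genes when widened to 11750 to 12750 kb, against 12, and the share with signal was 33.3% at a level of at least 1, against 66.7% above 0. The share of upstream windows with P1BS was 9.38% when those with unknown bases were counted. With 1 pooled value per gene, no result could be recomputed without a replicate, and no difference between low-Pi and control shoots is given.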
